A study of Homo sapiens with 8 samples.

Results

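The genes described here are 36 genes that build, sulfate, carry or remodel heparan sulfate and related glycosaminoglycans, out of 60623 genes counted. They were chosen by symbol from knowledge of the pathway, with earlier results of these data known. They comprised 1 enzyme of the sugar donor, 5 of the linker that ties a chain to its protein, 4 of chain polymerisation, 6 of chain modification, 4 of 3-O-sulfation, 3 of remodelling after synthesis, 4 syndecans, 4 glypicans, 2 hyaluronan synthases and 3 chondroitin enzymes. Messenger RNA was sequenced from ARPE-19, an established commercial line derived from human retinal pigment epithelium, grown in medium with 10% serum and treated for 24 h from about 80% confluence. The control cells received an equal volume of saline (PBS), and the fucoidan cells received 400 µg/mL of a crude preparation from the brown seaweed Fucus vesiculosus. The particulate cells received 200 µg/mL of diesel particulate matter, the reference material SRM 1650b, and the combination cells received both agents at the same doses, added together. There were 2 biological replicates of each of the 4 groups, 8 libraries in all, and n = 2 for every mean and SD below. The particulate was suspended in DMSO, below 0.1% in the medium, and no library had that solvent alone, so effects of the particles and of their solvent cannot be told apart.

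Heparan sulfate is a linear sugar chain fixed to core proteins on the cell surface and in the matrix. A linker is built on a serine of the core protein, EXT enzymes extend the chain, and NDST enzymes replace acetyl groups by sulfate, which sets where later sulfation can occur. The resulting pattern of charges determines which growth factors, chemokines and matrix proteins the chain holds, and the pigment epithelium deposits such chains in its basement membrane. Fucoidan is itself a sulfated polysaccharide, here supplied from outside the cell.

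With the particulate, transcripts that act at several steps of heparan sulfate synthesis and remodelling fell: those of the sulfatases SULF1 and SULF2, the chain polymerase EXT1, the N-sulfating enzyme NDST1 and the core proteins SDC2, GPC4 and GPC6. Transcripts of the linker enzyme B3GAT3, the hyaluronan synthase HAS3 and the chondroitin sulfotransferase CHST11 rose. With fucoidan none of the tested members passed the threshold, either without or with the particulate, beside 0.0% and 0.0866% of all genes tested. Changes are given on the log2 scale ± the standard error, estimated by edgeR's quasi-likelihood method on the 8 libraries together. A gene was called at a Benjamini-Hochberg adjusted p under 0.05 over all genes tested. The level of a gene across libraries is its normalised read count (CPM), and levels between genes are given as TPM, which allow for gene length.

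The upstream sequence is shown for 3 of the genes that passed with particulate. The particulate carries compounds known to act through the aryl hydrocarbon receptor and through oxidative stress. Whether they act on these genes was not tested. Each stretch holds 300 bases, from 250 before to 50 after a gene start in RefSeq (GRCh38.p14), printed 5′ to 3′ on the strand of the gene. Capitals mark, on either strand, the antioxidant response element TGACNNNGC, the AP-1 site TGANTCA and the xenobiotic response element core GCGTG, and no 2 marked matches share bases. The hypoxia response element core ACGTG was also searched and has no match in these stretches. NDST1 lies at chr5:150497529-150497828 on the plus strand, a start inside the longer span that GENCODE 29 gives the gene, GPC4 at chrX:133415440-133415739 on the minus strand, and B3GAT3 at chr11:62621937-62622236 on the minus strand.
NDST1: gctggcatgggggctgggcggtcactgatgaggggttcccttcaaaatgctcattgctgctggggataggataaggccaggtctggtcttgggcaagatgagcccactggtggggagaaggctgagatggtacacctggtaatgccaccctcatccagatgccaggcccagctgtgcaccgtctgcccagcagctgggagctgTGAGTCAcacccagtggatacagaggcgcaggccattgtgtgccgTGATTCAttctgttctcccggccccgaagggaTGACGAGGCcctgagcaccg
GPC4: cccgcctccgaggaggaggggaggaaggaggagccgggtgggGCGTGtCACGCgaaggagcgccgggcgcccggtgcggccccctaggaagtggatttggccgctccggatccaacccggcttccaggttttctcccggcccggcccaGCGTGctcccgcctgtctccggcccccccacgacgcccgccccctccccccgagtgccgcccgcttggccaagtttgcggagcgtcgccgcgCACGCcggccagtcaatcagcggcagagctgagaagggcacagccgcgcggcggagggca
B3GAT3: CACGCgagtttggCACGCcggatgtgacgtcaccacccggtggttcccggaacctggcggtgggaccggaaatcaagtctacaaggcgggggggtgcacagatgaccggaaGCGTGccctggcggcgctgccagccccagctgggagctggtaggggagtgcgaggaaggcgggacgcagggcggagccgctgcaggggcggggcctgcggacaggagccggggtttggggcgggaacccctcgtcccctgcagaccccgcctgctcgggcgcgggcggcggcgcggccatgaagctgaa

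The NDST1 stretch held 2 AP-1 matches and 1 antioxidant element match, the GPC4 stretch 4 xenobiotic core matches and the B3GAT3 stretch 3. Other searched members that passed with particulate held fewer matches of these kinds. CHST11 had 0, GPC6 1 antioxidant element, HAS3 1 xenobiotic core and SULF2 2 xenobiotic cores in a single listed start. Among 34943 RefSeq promoters of the same length, 7.72% held the AP-1 site, 13.3% the antioxidant element, 36.5% the xenobiotic core and 21.4% the hypoxia core. Of the 30 member genes searched, 1 held the AP-1 site in at least 1 listed start, 2 the antioxidant element, 15 the xenobiotic core and 9 the hypoxia core. Members on chromosome 8 (EXT1, EXTL3, HAS2, SDC2 and SULF1) were left out of this search, and GPC3 was not among the genes searched. The share over all promoters was not restricted in that way. It counts single stretches, while a member with several listed starts counted once if any of them held a match. The shares of members and of promoters are therefore unlike measures. A match describes the letters in this window and shows no binding.

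Total counts ran from 12993565 to 17019284 per library, and the 36 genes took 0.295% to 0.356% of them. Of the 36, 31 had enough reads to be tested among 15010 genes. HAS2, HS3ST2 and HS6ST2 had no read in any library, and GPC3 had 2 reads, both in fucoidan replicate 2. NDST2 had 39 reads in all, 2 to 9 per library, and its count is uncertain because 82.9% of its exon bases are shared with the read-through gene AC022400.6 on the same strand. XYLT1, at 68 reads in all, passed the filter but stayed under 1 CPM in every library. Combination replicate 1 stood apart from its replicate: 7.75% of tested genes differed at least 2-fold between the combination libraries, against 1.28% for particulate, 0.247% for fucoidan and 0.300% for control.

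The labelled cell type was checked against 14 pigment epithelium markers. RPE65, which marks mature pigment epithelium, had 2 reads over all libraries, and DCT, TYR and TYRP1 had 0, 24 and 15. OTX2, MITF, KRT8 and KRT18 were plainly present. The markers' summed level was 3631 to 4060.0 CPM in the libraries without particulate and 1702 to 2276 CPM in those with it, but KRT8 and KRT18 made up most of that sum (2133 and 1329 CPM in control replicate 1). Of the 10 tested markers, 8 fell with particulate and BEST1 rose by 2.40 ± 0.46 (adjusted p = 0.00628). BEST1 was low throughout, at 0.708 and 0.319 CPM in control and 2.08 and 3.36 CPM with particulate. Rod, cone, glial, endothelial and leukocyte markers had 0 to 3 reads over all libraries. The part that this shift in the pigment epithelium markers has in the values below was not tested. In these bulk samples, fewer cells of a kind and less RNA per cell cannot be told apart.

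In control cells the most abundant transcripts per length were those of the chondroitin polymerising factor CHPF (403 ± 42.9 TPM, SD), the syndecan SDC4 (284 ± 6.78 TPM), the glypican GPC1 (218 ± 35.97 TPM), NDST1 (214 ± 19.8 TPM), SDC2 (212 ± 1.91 TPM) and EXT1 (192 ± 3.75 TPM). GPC1, NDST1 and SDC2, neighbours in that order, did not differ beyond their spread. The lowest tested transcripts were those of HS3ST1 (6.82 ± 0.292 TPM), SULF2 (6.62 ± 0.171 TPM), HAS3 (1.74 ± 0.114 TPM) and XYLT1 (0.158 ± 0.0784 TPM). The order shifted with treatment: NDST1 stood at rank 4 of the 36 in control, at rank 10 with particulate and at rank 7 in the combination. B3GAT3 moved the other way, from rank 9 to rank 4 and rank 5, and GPC4 stood at rank 17 and then at rank 24 in both groups with particulate.

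**Figure D1:**
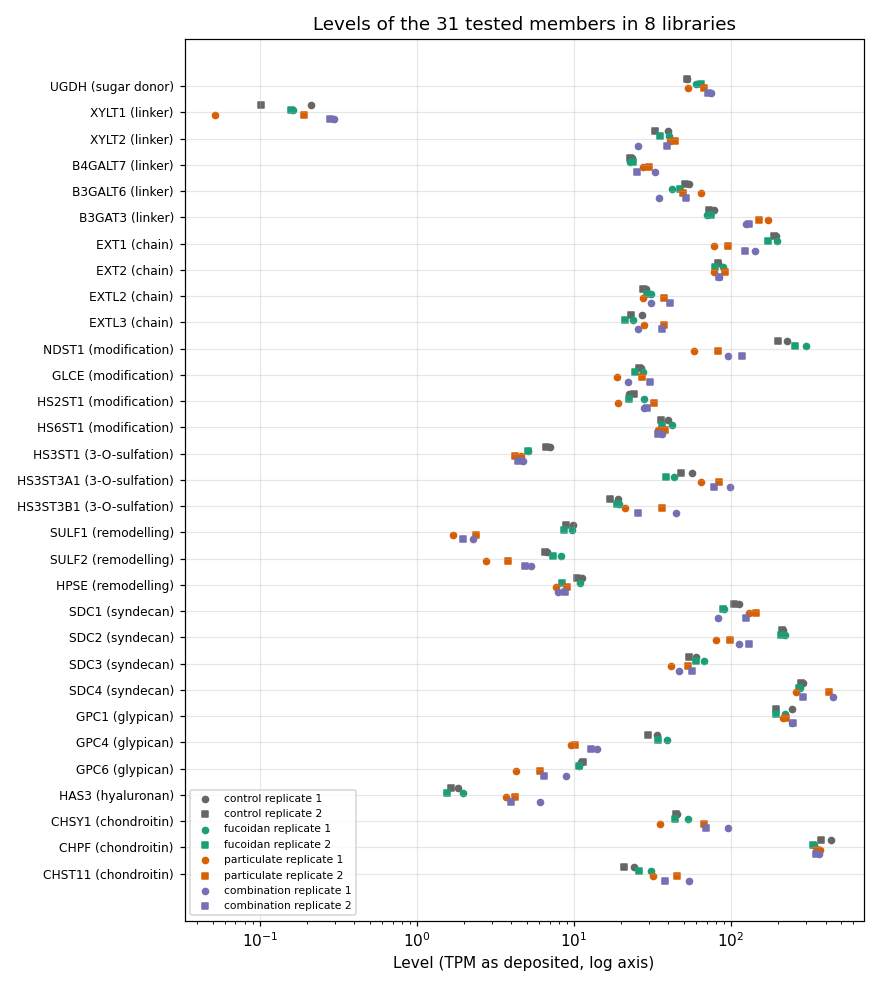
Level of each of the 31 tested genes as deposited TPM on a log axis, grouped by role from top to bottom, with 1 marker for each of the 8 libraries (circles for replicate 1, squares for replicate 2). For SULF1, GPC4, NDST1 and SDC2 the 4 libraries with particulate lie to the left of the 4 without it, and for B3GAT3 and HAS3 they lie to the right.

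Particulate was compared with control to ask what the particles did without fucoidan. Of the 31 genes tested, 10 passed, 3 higher and 7 lower, which is 32.3% against 20.6% of all genes tested. By direction, 9.11% of all genes rose and 11.5% fell. The median log2 change of the 31 was 0.04, beside 0.01 for all genes, and the values ran from -2.20 for SULF1 to 1.19 for HAS3. With fucoidan present in both groups, the combination was compared with fucoidan alone, and 7 of the 31 passed, 3 higher and 4 lower. That is 22.6% of the members against 20.7% of all genes, a share near the background, of which 10.2% rose and 10.6% fell. Leaving out control replicate 1, control replicate 2 or particulate replicate 1 lowered the first count to 6, beside 6.36%, 8.24% and 12.7% of all genes. The second fell to 4 without fucoidan replicate 2 (6.28% of all genes) and rose to 11 without combination replicate 1 (21.7%) and 12 without combination replicate 2 (34.8%).

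**Figure D2:**
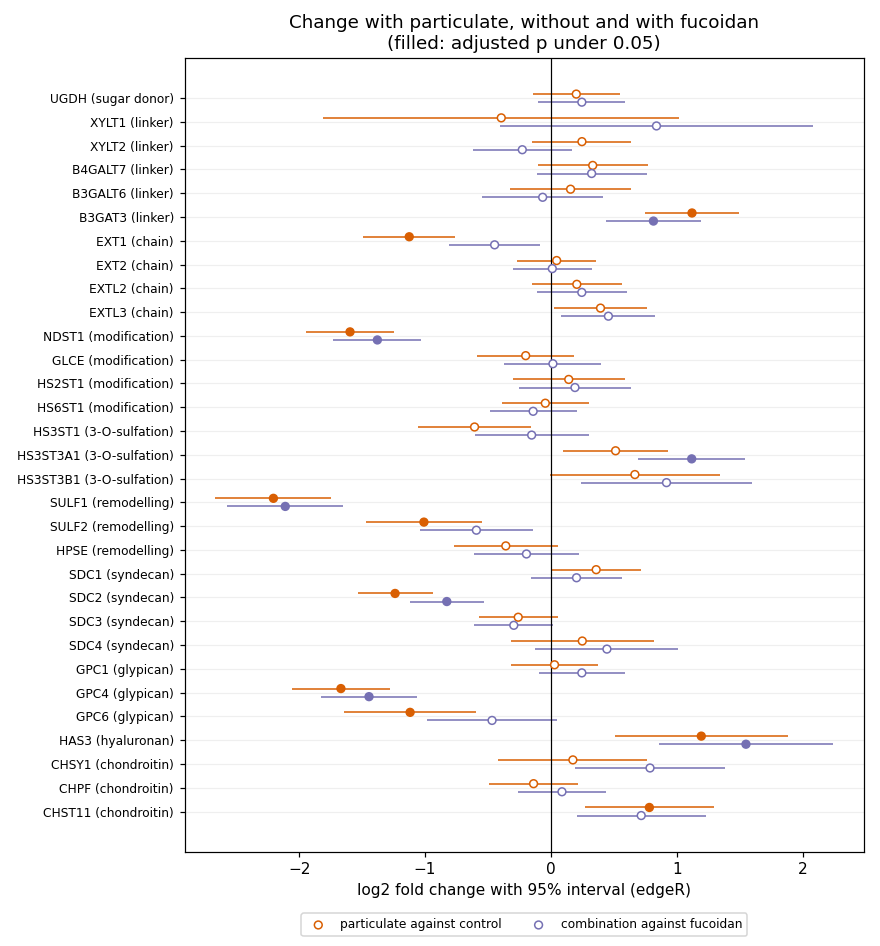
Log2 fold change with its 95% interval from edgeR for each of the 31 tested genes, for particulate against control (orange) and combination against fucoidan (violet), with filled points for an adjusted p under 0.05. SULF1, GPC4, NDST1 and SDC2 are filled on the left and B3GAT3 and HAS3 on the right in both comparisons, and SULF1 lies farthest from 0, at -2.20 and -2.11.

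UGDH, which makes the UDP-glucuronic acid that every heparan sulfate, chondroitin and hyaluronan chain needs, had 57.0 and 59.9 CPM in control and 63.8 and 70.5 CPM with particulate. It did not pass in any comparison, and its log2 fold changes lay between 0.19 and 0.24 in the 4 pairwise comparisons.

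The linker is made in steps by xylosyltransferases (XYLT1, XYLT2), galactosyltransferases (B4GALT7, B3GALT6) and the glucuronyltransferase B3GAT3, which adds the closing sugar. B3GAT3 had 50.8 and 49.1 CPM in the control libraries, 44.2 and 48.8 CPM with fucoidan, 123 and 94.0 CPM with particulate and 85.1 and 78.5 CPM in the combination. All 4 libraries with particulate lay above all 4 without it, and the combination libraries lay below the particulate libraries. B3GAT3 rose by 1.12 ± 0.17 with particulate (2.17-fold, adjusted p = 0.00176) and by 0.81 ± 0.17 in the combination against fucoidan (1.76-fold, adjusted p = 0.0096). The second call was lost without fucoidan replicate 1 (adjusted p = 0.107) and without fucoidan replicate 2 (adjusted p = 0.0661).

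The other 4 linker enzymes did not pass. XYLT2 had 66.6 and 62.4 CPM with particulate and 40.3 and 53.8 CPM in the combination, groups that did not overlap (log2 fold change -0.45 ± 0.18, adjusted p = 0.259). B3GALT6 had 53.8 and 36.4 CPM with particulate and 28.0 and 36.2 CPM in the combination, so its lowest particulate library lay just above its highest combination library (-0.49 ± 0.21, adjusted p = 0.281). B4GALT7 ranged from 29.1 to 45.5 CPM over the 8 libraries, with both ends of the range in groups that received fucoidan.

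EXT1 and EXT2 form the complex that alternately adds the repeating sugars of the chain, and EXTL2 and EXTL3 act at its start. EXT1 had 436 and 444 CPM in control, 426 and 389 CPM with fucoidan, 194 and 209 CPM with particulate and 339.9 and 258 CPM in the combination. The 4 libraries with particulate lay below the 4 without it, and the combination libraries lay between the particulate and the control libraries, well apart from each other. EXT1 fell by 1.13 ± 0.16 on the log2 scale with particulate (2.18-fold lower, adjusted p = 0.00153), and its change in the combination against fucoidan, -0.45 ± 0.16, did not pass (adjusted p = 0.0768).

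EXT2, the partner of EXT1, had 259.6 and 273 CPM in control and 271 and 278 CPM with particulate, and the groups overlapped. Its change with particulate was 0.04 ± 0.14, with a 95% interval from -0.27 to 0.36, so the members of the complex differed in their values. EXTL3, which starts the heparan sulfate chain, had 95.4 and 84.8 CPM in control and 109 and 128 CPM with particulate (0.39 ± 0.17, adjusted p = 0.127). EXTL2 lay between 31.2 and 41.0 CPM in all libraries and did not pass.

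**Figure D3:**
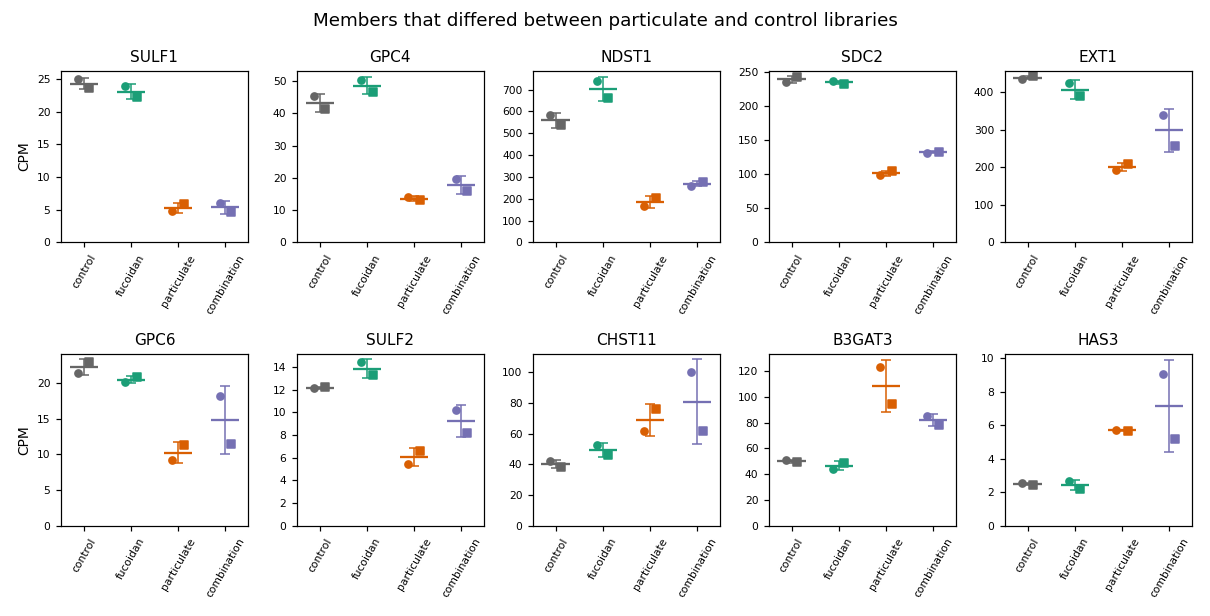
CPM in each library for the 10 genes that passed in particulate against control, with the mean as a horizontal line and the SD as bars for each group of 2 (circles for replicate 1, squares for replicate 2). The 4 particulate and combination libraries lie below the other 4 for the 7 genes that fell, and the combination libraries of EXT1, GPC6, CHST11 and HAS3 lie far apart.

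NDST1, the N-deacetylase and N-sulfotransferase that opens the chain to further sulfation, had 585 and 536 CPM in control, 740.3 and 662 CPM with fucoidan, 166 and 204 CPM with particulate and 260.2 and 279 CPM in the combination. None of the 4 groups overlapped, and the fucoidan libraries were the highest. It fell by 1.60 ± 0.16 with particulate (3.02-fold lower, adjusted p = 0.00017) and by 1.38 ± 0.16 in the combination against fucoidan (2.60-fold lower, adjusted p = 0.000559). With NDST2 at the floor of detection, nearly all NDST reads among the members came from NDST1.

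The epimerase and the 2-O- and 6-O-sulfotransferases act on the chain after NDST1. GLCE, the epimerase that turns glucuronic into iduronic acid, had 47.8 and 48.6 CPM in control and 37.1 and 46.7 CPM with particulate (-0.20 ± 0.17, adjusted p = 0.447). The 2-O-sulfotransferase HS2ST1 lay between 42.6 and 62.7 CPM in all libraries, with both ends in the particulate group. HS6ST1, the only 6-O-sulfotransferase among the members with reads, lay between 42.6 and 54.3 CPM, and its change with particulate was -0.05 ± 0.15 with a 95% interval from -0.39 to 0.30. None of these 3 passed in any comparison.

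The 3-O-sulfotransferases add the rarest modification: HS3ST1 in mammals helps to make the antithrombin-binding form, and HS3ST3A1 and HS3ST3B1 make a form known as a receptor for herpes simplex virus. HS3ST3A1 had 65.2 and 58.3 CPM in control, 48.7 and 45.3 CPM with fucoidan, 82.6 and 93.5 CPM with particulate and 119.9 and 84.1 CPM in the combination. The fucoidan libraries were the lowest and the libraries with particulate the highest, without overlap between these and the control libraries. HS3ST3A1 rose by 1.12 ± 0.19 in the combination against fucoidan (2.17-fold, adjusted p = 0.00409), a call lost without fucoidan replicate 2 (adjusted p = 0.0523). In particulate against control its change was 0.51 ± 0.19 (adjusted p = 0.0828).

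HS3ST3B1 had 27.6 and 25.7 CPM in control, 33.8 and 50.8 CPM with particulate and 68.8 and 34.7 CPM in the combination, and the wide gap between the combination libraries exceeded that of any other tested member on the log2 scale. Its change in the combination against fucoidan was 0.92 ± 0.30 (adjusted p = 0.0576). HS3ST3A1 and HS3ST3B1 are near-identical in part. The split of reads between them is uncertain, since it rests on a treatment of multiple alignments not given in the sources used here. HS3ST1 had 14.1 and 13.9 CPM in control, 9.91 and 10.3 CPM with fucoidan, 10.2 and 8.13 CPM with particulate and 10.0 and 8.19 CPM in the combination. All 6 treated libraries lay below the control libraries, and no comparison passed (particulate against control -0.61 ± 0.20, adjusted p = 0.0585).

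SULF1 and SULF2 are secreted enzymes that remove 6-O-sulfate from finished chains and so change which ligands these hold. SULF1 had 24.9 and 23.6 CPM in control, 23.9 and 22.2 CPM with fucoidan, 4.73 and 5.80 CPM with particulate and 6.06 and 4.63 CPM in the combination. The libraries fell into a high set without particulate and a low set with it, and within each set the groups overlapped. SULF1 fell by 2.20 ± 0.21 with particulate (4.61-fold lower, adjusted p = 0.000132) and by 2.11 ± 0.21 in the combination against fucoidan (4.32-fold lower, adjusted p = 0.000258).

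SULF2 had 12.1 and 12.2 CPM in control, 14.4 and 13.3 CPM with fucoidan, 5.48 and 6.60 CPM with particulate and 10.2 and 8.19 CPM in the combination. No group overlapped another, with the order fucoidan, control, combination and particulate from high to low. SULF2 fell by 1.01 ± 0.20 with particulate (2.01-fold lower, adjusted p = 0.00809), a call lost without control replicate 1 (adjusted p = 0.0684), control replicate 2 (0.0626) or particulate replicate 1 (0.0577). Heparanase (HPSE), which cuts heparan sulfate chains, had 14.3 and 13.8 CPM in control and 10.8 and 11.1 CPM with particulate, and its change of -0.36 ± 0.18 did not pass (adjusted p = 0.202).

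Syndecans are core proteins that span the membrane. SDC2 had 235 and 243 CPM in control, 236 and 233 CPM with fucoidan, 98.4 and 104 CPM with particulate and 131 and 133 CPM in the combination. The control and fucoidan libraries overlapped, and the combination libraries lay between them and the particulate libraries. SDC2 fell by 1.24 ± 0.13 with particulate (2.36-fold lower, adjusted p = 0.000285) and by 0.83 ± 0.13 in the combination against fucoidan (1.77-fold lower, adjusted p = 0.00298).

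The other 3 syndecans did not pass. SDC4, the leading syndecan by TPM and a partner of integrins in focal adhesions, had 204 and 206 CPM in control, 188 and 194 CPM with fucoidan, 202 and 285 CPM with particulate and 331 and 188 CPM in the combination. The replicates with particulate spread more widely than the difference between groups, and the change with particulate was 0.25 ± 0.25 (adjusted p = 0.531). SDC1, the main syndecan of epithelia, had 110.4 and 107 CPM in control, 84.8 and 87.8 CPM with fucoidan, 141 and 137 CPM with particulate and 85.8 and 113 CPM in the combination. Its particulate libraries were the highest, and the change with particulate was 0.36 ± 0.16 (adjusted p = 0.145). SDC3 had 115 and 108 CPM in control and 88.0 and 98.3 CPM with particulate (-0.26 ± 0.14, adjusted p = 0.22).

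Glypicans are held on the outer membrane by a lipid anchor and modulate Wnt, Hedgehog and growth factor signals. GPC4 had 45.2 and 41.3 CPM in control, 50.5 and 46.6 CPM with fucoidan, 14.1 and 13.1 CPM with particulate and 19.8 and 15.9 CPM in the combination. No group overlapped another, and the particulate libraries were the lowest. GPC4, whose upstream sequence is printed above, fell by 1.67 ± 0.17 with particulate (3.18-fold lower, adjusted p = 0.000225) and by 1.45 ± 0.17 in the combination against fucoidan (2.72-fold lower, adjusted p = 0.000678).

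GPC6 had 21.5 and 23.0 CPM in control, 20.1 and 20.8 CPM with fucoidan, 9.17 and 11.3 CPM with particulate and 18.2 and 11.5 CPM in the combination. The combination libraries lay far apart, 1 near the fucoidan libraries and 1 near the particulate libraries. GPC6 fell by 1.12 ± 0.23 with particulate (2.17-fold lower, adjusted p = 0.00927), a call lost without control replicate 1 (adjusted p = 0.0610), control replicate 2 (0.0713) or particulate replicate 1 (0.0714). GPC1, the leading glypican by TPM, had 428 and 354 CPM in control and 418 and 379 CPM with particulate, so the groups overlapped (0.03 ± 0.15, 95% interval from -0.32 to 0.37, adjusted p = 0.919).

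Hyaluronan is made without a core protein and carries no sulfate. HAS3, the only hyaluronan synthase among the members with reads, had 2.55 and 2.43 CPM in control, 2.65 and 2.21 CPM with fucoidan, 5.71 and 5.68 CPM with particulate and 9.06 and 5.18 CPM in the combination. The 4 libraries with particulate lay above the 4 without it, at a low level throughout. HAS3 rose by 1.19 ± 0.31 with particulate (2.29-fold, adjusted p = 0.0239) and by 1.55 ± 0.31 in the combination against fucoidan (2.92-fold, adjusted p = 0.00824). Its particulate call was lost without control replicate 1 (adjusted p = 0.144), control replicate 2 (0.145), particulate replicate 1 (0.0758) or particulate replicate 2 (0.0757), and its other call without fucoidan replicate 1 (0.0570) or 2 (0.0897). Of its exon bases, 6.90% lie opposite the gene CHTF8, and opposite-strand genes also cover 7.36% of GPC6, 4.63% of SULF2, 8.87% of EXTL2 and 7.24% of UGDH, while AC093155.3 shares 9.69% of HS2ST1 on the same strand. Strand use in counting was not stated, so these counts carry that uncertainty.

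CHSY1 and CHPF polymerise chondroitin on the same linker, and CHST11 sulfates it at position 4. CHST11 had 42.1 and 38.1 CPM in control, 52.5 and 46.1 CPM with fucoidan, 61.7 and 76.2 CPM with particulate and 100.4 and 61.6 CPM in the combination. Each library with particulate lay above each library without it, and combination replicate 1 was the highest. CHST11 rose by 0.78 ± 0.23 with particulate (1.72-fold, adjusted p = 0.0395). This call was lost in 6 of 8 fits that left out a library: without control replicate 1 (adjusted p = 0.168) or 2 (0.215), fucoidan replicate 1 (0.0676) or 2 (0.0676), and particulate replicate 1 (0.0566) or 2 (0.166).

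CHSY1 had 69.8 and 71.2 CPM in control, 59.8 and 99.2 CPM with particulate and 155 and 98.1 CPM in the combination. Its particulate libraries lay below and above the control libraries, and its change in the combination against fucoidan was 0.79 ± 0.26 (adjusted p = 0.0618). CHPF, the most abundant member in control, had 395 and 355 CPM in control and 370.1 and 311 CPM with particulate, and its change was -0.14 ± 0.16 (adjusted p = 0.573).

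The change with fucoidan was read first without the particulate. Of all 15010 genes, 0.0% passed, and 0 of the 31 members passed in edgeR. At an unadjusted p under 0.05, 1 member (HS3ST1, -0.47 ± 0.20, unadjusted p = 0.0423, adjusted p = 0.999) and 4.41% of all genes were counted. DESeq2, voom with sample weights and limma on TPM also called 0 members. The libraries of the groups did not overlap for 7 members higher with fucoidan and 12 lower, against 23.2% of all genes higher and 24.8% lower. The largest positive value was that of NDST1 (0.32 ± 0.15, 95% interval from -0.02 to 0.67), and after HS3ST1 the lowest values were those of HS3ST3A1 (-0.39 ± 0.19) and SDC1 (-0.33 ± 0.16). In a fit of only the control and fucoidan libraries, 2 members passed, HS3ST3A1 and SDC1, both lower with fucoidan, and 5.93% of all genes passed in the same fit.

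With the particulate present in both groups, the combination was compared with particulate alone, and 0 of the 31 members passed in edgeR, against 0.0866% of all genes. At an unadjusted p under 0.05, 11 members were counted, beside 17.3% of all genes, and DESeq2, voom with sample weights and limma on TPM called 0. The libraries of the groups did not overlap for 8 members higher in the combination and 5 lower, against 20.9% and 20.4% of all genes. The smallest unadjusted p-values were those of EXT1 (0.57 ± 0.16, adjusted p = 0.218) and NDST1 (0.54 ± 0.15, adjusted p = 0.218). Next to them, SULF2 had a change of 0.60 ± 0.21, GPC6 of 0.53 ± 0.23, GPC4 of 0.39 ± 0.17 and SDC2 of 0.38 ± 0.13, with adjusted p-values from 0.238 to 0.285. CHSY1 had the largest positive value of the 11, 0.67 ± 0.26 (adjusted p = 0.26). On the other side, SDC1 had -0.49 ± 0.16 (adjusted p = 0.233), B3GALT6 -0.49 ± 0.21, XYLT2 -0.45 ± 0.18 and B3GAT3 -0.41 ± 0.16 (adjusted p = 0.265).

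Of the 7 members with positive values, EXT1, NDST1, SULF2, GPC6, GPC4 and SDC2 had fallen with particulate against control, and CHSY1 had not (0.17 ± 0.26). Of the 4 with negative values, B3GAT3 had risen, and SDC1 (0.36), XYLT2 (0.25) and B3GALT6 (0.15) had not passed. These comparisons share the particulate libraries, so a particulate value that is low by chance lowers one and raises the other, and their signs are not separate results. Side by side, EXT1 changed by -1.13 with particulate against control and had 0.57 in the combination against particulate, NDST1 -1.60 and 0.54, SDC2 -1.24 and 0.38, GPC4 -1.67 and 0.39, and SULF1 -2.20 and 0.02. The SULF1 libraries of the combination overlapped those of particulate. Without fucoidan, in libraries that the combination comparison does not use, the same genes had -0.11 (EXT1), 0.32 (NDST1), -0.03 (SDC2), 0.17 (GPC4) and -0.08 (SULF1).

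**Figure D4:**
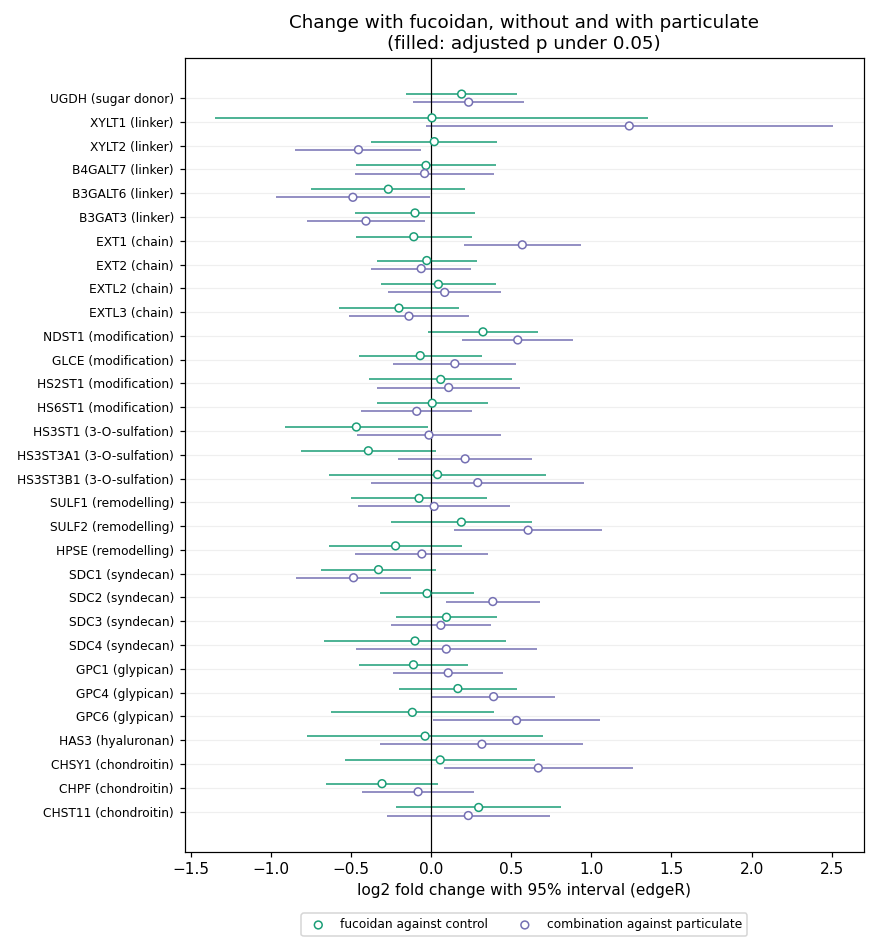
Log2 fold change with its 95% interval from edgeR for each of the 31 tested genes, for fucoidan against control (green) and combination against particulate (violet). No point is filled, since no adjusted p was under 0.05, and 11 violet intervals do not reach 0: those of EXT1, NDST1, SULF2, SDC2, GPC4, GPC6 and CHSY1 on the right and of XYLT2, B3GALT6, B3GAT3 and SDC1 on the left.

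The difference between the fucoidan changes with and without particulate was tested as an interaction. Of the members, 0 passed in edgeR, as did 0.0% of all genes, and DESeq2, voom with sample weights and limma on TPM called 0. At an unadjusted p under 0.05, 2 members were counted, beside 4.45% of all genes: EXT1 (0.68 ± 0.23, unadjusted p = 0.0149) and HS3ST3A1 (0.60 ± 0.26, unadjusted p = 0.0466), both with an adjusted p of 0.897. For SDC2 the interaction was 0.41 ± 0.19 and for NDST1 0.22 ± 0.22.

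The wide gap between the combination libraries touches these comparisons. Between combination replicates 1 and 2, 22 of the 31 members were higher in replicate 1, and 8 differed by at least 0.5 on the log2 scale, from -0.41 for XYLT2 to 0.98 for HS3ST3B1. In the particulate group 5 differed by that much, and in control and fucoidan 0. A list of 10 hypoxia-induced genes was chosen because earlier results of these data had shown it to differ between replicates. Its wider gap than that of the members therefore describes the libraries and is no separate result. All 10 were higher in combination replicate 1, with a median log2 ratio of 2.60. In particulate replicate 1, 0 of 10 were higher, with a median of -1.02. NDRG1, a member of that list, had 2579 and 115 CPM in the combination libraries. The part of this library state in the members' values was not tested. Without combination replicate 2, 7 members passed in the combination against particulate, 5 higher (CHSY1, EXT1, GPC6, HS3ST3B1, SULF2) and 2 lower (SDC1, XYLT2), while 20.9% of all genes passed in the same fit. In that fit 3 passed in the interaction (EXT1, GPC6, HS3ST3A1), beside 5.67% of all genes. Without combination replicate 1, 0 passed in either.

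**Figure D5:**
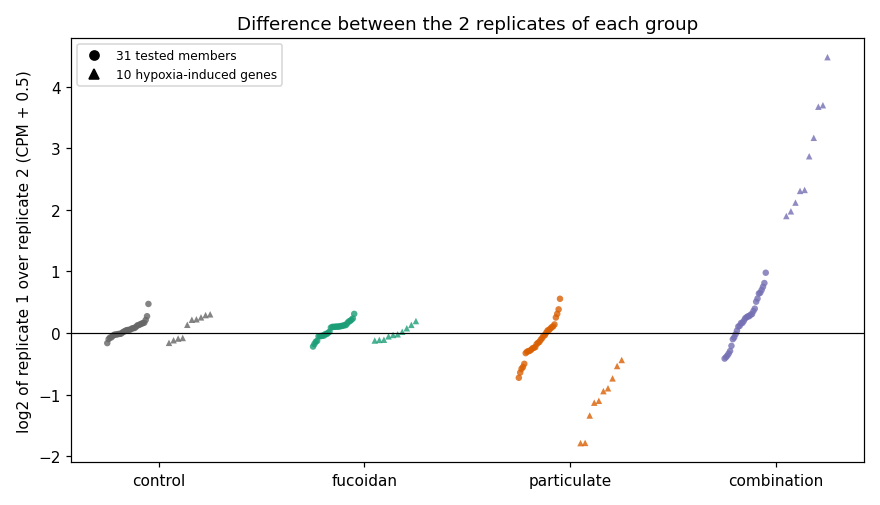
Log2 ratio of replicate 1 to replicate 2 (CPM + 0.5) in each group, for the 31 tested genes (circles) and 10 hypoxia-induced genes (triangles), 1 point per gene in rising order. In the combination all 10 triangles lie above 0 with a median of 2.60, and the circles run from -0.41 to 0.98. The 10 genes were listed because they had differed between replicates in earlier results of these data.

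Around the members, 62 further genes of the same pathways were listed in 7 lists, from sulfate supply to lysosomal breakdown, and 51 were tested. With particulate 9 rose and 11 fell, which is 39.2% of those tested against 20.6% of all genes, with a median log2 change of -0.14. Fewer passed without control replicate 1 or control replicate 2, as did a smaller share of all genes in the same fits. In the combination against fucoidan 8 rose and 6 fell (27.5% against 20.7% of all genes). Fewer passed there without fucoidan replicate 1 or fucoidan replicate 2. In fucoidan against control 0 passed in edgeR, DESeq2 and limma, with 2 at an unadjusted p under 0.05, beside 4.41% of all genes. With only those groups fitted, 1 rose and 4 fell, and the share of all genes in that fit, given above, was higher too. In the combination against particulate 0 passed in edgeR and limma and 1, lower, in DESeq2, with 11 at an unadjusted p under 0.05 in edgeR, beside 17.3% of all genes. There 3 rose and 1 fell with no filter on low counts, and more passed without combination replicate 2. A larger share of all genes passed in these fits too, so the higher counts are not read as an excess. By list, with particulate, 1 of 5 sulfate supply genes, 2 of 5 linker genes, 1 of 2 heparan sulfate enzymes, 5 of 11 chondroitin and dermatan enzymes, 3 of 7 hyaluronan genes, 5 of 10 core proteins and 3 of 11 lysosomal enzymes passed.

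Among the sulfate supply genes, PAPSS2, which makes the sulfate donor PAPS, had 384 and 377 CPM in control and 169 and 198 CPM with particulate. It fell by 1.05 ± 0.16 (2.08-fold lower, adjusted p = 0.002), and its level was 274 and 217 CPM in the combination. Perlecan (HSPG2), the large heparan sulfate proteoglycan of basement membranes, had 862 and 567 CPM in control and 159 and 218 CPM with particulate. HSPG2 fell by 1.92 ± 0.24 with particulate (3.79-fold lower, adjusted p = 0.000723) and by 1.79 ± 0.24 in the combination against fucoidan (adjusted p = 0.00141).

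The only one of the 10 tested core proteins that rose was neuropilin-1 (NRP1), a co-receptor for vascular endothelial growth factor that can carry a glycosaminoglycan chain. It had 25.8 and 30.1 CPM in control and 130.4 and 159.6 CPM with particulate (2.37 ± 0.19, adjusted p = 6.26e-05). The hyaluronan receptor CD44 rose by 1.27 ± 0.15 (2.41-fold, adjusted p = 0.000464), the same direction as HAS3. Of the 11 tested chondroitin and dermatan enzymes, 4 rose and 1 fell with particulate, with 6 positive and 5 negative values. Of the sulfotransferases among them, CHST15 rose by 1.31 ± 0.24 (adjusted p = 0.005) and UST by 1.21 ± 0.21 (adjusted p = 0.00422). The sulfotransferase CHST14 went the other way, with 51.1 and 50.4 CPM in control and 27.2 and 30.5 CPM with particulate. The CHST15 call was lost without control replicate 2 (adjusted p = 0.0626) and that of UST without control replicate 1 (0.0533) or 2 (0.0506). In the combination against fucoidan, UST rose by 1.98 ± 0.22, NRP1 by 1.74 ± 0.18, CHST15 by 1.63 ± 0.24 and CD44 by 1.28 ± 0.15. There CSGALNACT2, which starts chondroitin chains, rose by 1.27 ± 0.26 (adjusted p = 0.0103), a call lost without fucoidan replicate 1 (0.0779) or 2 (0.0821).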

How the data were processed

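The deposited gene counts were raw integers. They came, per the submitters' processing notes, from featureCounts (Subread 2.0.1) on HISAT2 2.1.0 alignments to GRCh38 after bcl2fastq, fastp 0.20.0 and FastQC 0.11.9. TPM were used as deposited, per the file headers, for levels between genes and 1 alternative. Libraries were stranded poly(A) libraries read as 150-bp pairs, per the labels' protocols. Annotation release, strand use and the treatment of multiple alignments were choices not given in the sources used here.

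edgeR 4.0.16 in R 4.3.3 kept 15010 of 60623 genes (filterByExpr, 4 groups), scaled libraries by TMM and fitted 1 mean per group to 8 libraries (4 residual degrees of freedom, common dispersion 0.0288). Quasi-likelihood F tests of 5 contrasts were adjusted by Benjamini-Hochberg within each. The SE is the absolute log2 fold change over the square root of F, and intervals are 95%. Replicates with particulate differ more than those without it, and the fit gives all groups 1 spread. Alternatives were DESeq2 1.42.0, RLE scaling, no filter, only the groups compared, a replicate block, limma 3.58.1 (voom with sample weights; trend on log2(TPM + 1)) and each library left out. The members, the other pathway lists, the marker lists and the tests were chosen with earlier results of these data known. All members are accounted for, with full statistics for those that passed and for the leading syndecan, glypican and hyaluronan synthase. Other pathway genes are named where they passed with a mean of at least 5 CPM, up to 6 a comparison by size of change. Positions and overlaps come from GENCODE 29, and promoters from RefSeq. Promoters of 30 of the 36 members were searched, with the members on chromosome 8 left out.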

Additional observations from a re-analysis of the deposited data

How the results depend on the processing

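For the called members and named pathway genes, and for members at an unadjusted p under 0.05 in the fucoidan comparisons, 41 results were recomputed under 15 alternatives: 578 of 615 values kept their direction and side of the threshold, 28 lost the call, 9 gained one and 0 changed direction. The count of members called in fucoidan against control was 2 with only the groups compared and 0 in all other alternatives. In combination against particulate it was 3 with no filter on low counts (CHSY1, EXT1 and NDST1, all higher, beside 4.40% of all genes), and leaving out 1 library at a time gave 0 to 7. Leaving out 1 library gave 6 to 15 in particulate against control, with 6 without control replicate 1, control replicate 2 or particulate replicate 1, the same 6 genes each time (B3GAT3, EXT1, GPC4, NDST1, SDC2, SULF1), and 15 without either combination library. In combination against fucoidan it gave 4 to 12, with 4 without fucoidan replicate 2, 11 without combination replicate 1 and 12 without combination replicate 2. In the interaction it gave 0 to 3. The CHST11 call was lost in limma on TPM (adjusted p = 0.0669) and the HAS3 call in combination against fucoidan with only the groups compared (0.0527). With the replicate block the counts were 10 in particulate against control, 7 in combination against fucoidan and 0 in the other 3 comparisons, so it changed no count of members. Deviations of same-numbered libraries correlated between -0.250 and 0.0754. With 2 libraries a group each deviation rests on 1 difference, so this cannot tell whether the numbers pair the libraries. With 2 libraries a group, p-values rest on a spread pooled over groups that differ in it, and the lone library of a group is assumed to vary like the rest when the other is left out. The causes of these differences were not tested. For particulate against control with a combination library left out, no share of all genes called is given here. The higher count of members in those fits is therefore not read as an excess over all genes.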

Other observations

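Other pathway genes under the level set for naming were looked at after their values had been seen. Not all of them fell: the chondroitin enzyme CHSY3 had 0.779 and 1.02 CPM in control and 2.08 and 2.57 CPM with particulate. The 4 that follow fell. CEMIP, a hyaluronan-binding protein needed for hyaluronan breakdown, had 4.25 and 3.58 CPM in control, 0.231 and 0.122 CPM with particulate and 0.600 and 0.780 CPM in the combination (log2 fold change with particulate -4.40, adjusted p = 0.000164 in edgeR). HYAL1, a hyaluronidase, had 2.76 and 1.73 CPM in control and 0.692 and 0.672 CPM with particulate (-1.70, adjusted p = 0.0112). The proteoglycan CSPG4 had 2.62 and 2.75 CPM in control and 0.0577 and 0.428 CPM with particulate (-3.45, adjusted p = 0.00354). HS3ST5, another 3-O-sulfotransferase, had 5.10 and 4.15 CPM in control, 1.56 and 1.34 CPM with particulate and 3.40 and 2.28 CPM in the combination (-1.66 with particulate, adjusted p = 0.00441). For the 4 that fell the control and particulate libraries did not overlap. The same held for many of the 15010 genes tested, 4855 lower and 4901 higher with particulate.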
